A study of Homo sapiens with 16 samples.

Results

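Tissue factor pathway inhibitor (TFPI) and 8 other genes of coagulation and fibrinolysis were followed in 8 lung cancer cell lines grown on plastic and in Matrigel. The members were TFPI, TFPI2, F3, PLAU, PLAUR, PLAT, SERPINE2, THBD and PROCR, 9 of 19775 genes with a probe set annotated to a single gene. They were chosen by function, but also on measured values, since the large 3D minus 2D difference of TFPI was known when the set was drawn up. For that reason the 3D minus 2D values of members are given as a description, with no p-value for any member. The number of member probe sets that passed the test of all probe sets is given only beside the share of all that passed. The 9 genes had 20 probe sets annotated to 1 of them only, and 0 probe sets named a member among several genes.

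The lung cancer lines were H23, H358, H460, H661, H1437, H1703, A427 and A549. In the 2D arm the cells lay on tissue culture plastic, and in the 3D arm they sat on a thin Matrigel layer and were covered by medium with 2% Matrigel. Matrigel is a basement membrane extract. Density and medium were similar in both arms, and no other agent or genetic change separated them. One U133 Plus 2.0 array was run for every line in each culture (16 in all, 8 in 2D and 8 in 3D), so a difference within 1 line has no replicate.

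Tissue factor, the product of F3, is the membrane receptor that binds factor VII and starts coagulation. TFPI, a secreted or membrane-bound protein with Kunitz inhibitor domains, blocks factor Xa and the tissue factor complex. Thrombomodulin (THBD) and the endothelial protein C receptor (PROCR) turn thrombin towards activation of the anticoagulant protein C. On the fibrinolytic side, urokinase (PLAU) and tissue plasminogen activator (PLAT) convert plasminogen to plasmin, and PLAUR holds urokinase at the cell surface. SERPINE2, also known as protease nexin-1, inhibits thrombin and both activators, and TFPI2 is a Kunitz inhibitor of plasmin found in extracellular matrix. Carcinoma cells are known to make many of these proteins themselves.

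The deposited value is a log2 ratio of an array to a reference of that probe set, which is its own median over the 16 arrays unless the probe set is dim. A value of 0 is thus the middle of these arrays, and levels of different genes or probe sets cannot be set against each other. The lowest ratio in the table is 0.01, or -6.64 on the log2 scale, so a value there is only an upper bound. Dim probe sets, whose median lies under their reference, were left out of the tests, and 34669 probe sets were tested with limma (cell line and culture in 1 fit, called at a Benjamini-Hochberg adjusted p under 0.05). Of the 20 member probe sets 17 were tested, at least 1 for each gene, and 3 were dim (THBD 203887_s_at and 237252_at, SERPINE2 227487_s_at). The 18S rRNA controls were lower in 3D in 8 of 8 lines, by a mean of -1.15 ± 1.06 (SD, n = 8; log2), from -0.08 in H1437 to -3.45 in H23. The 3' minus 5' values of the GAPDH and ACTB controls differed by -0.03 and 0.09. The other array of the same line was the nearest array for 16 of 16 arrays.

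TFPI had the largest mean difference between the cultures among the 9 gene averages, and it was the member with the same sign in every line. Averaged over its 5 probe sets its 3D values exceeded its 2D values 2.13-fold, by 1.09 ± 0.63 on the log2 scale (SD over 8 lines), in 8 of 8 lines. The line averages ran from 0.39 in A427 to 1.98 in H460. Each array measured bulk RNA, so more cells with TFPI transcript and more transcript per cell cannot be told apart.

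On probe set 210665_at, the most variable of the 5, the 2D values lay between -3.11 (A549) and 4.95 (A427) with a median of -1.03. The 3D values lay between -0.51 (H358) and 5.31 (A427) with a median of 0.84. The 2D and 3D ranges overlapped, and A427 was above the other lines in both cultures, but within every line the 3D array was the higher one. The differences were 3.42 in H460, 2.97 in A549, 2.76 in H661, 2.30 in H358, 2.20 in H1437, 1.44 in H1703, 1.28 in H23 and 0.36 in A427, with a mean of 2.09 ± 1.01, or 4.26-fold. The H460 difference was larger in size than 99.97% of tested probe sets in that line, while the A427 difference exceeded 74.4%. On this probe set, as on 210664_s_at, the line with the highest level on plastic (A427) thus had the smallest difference. This was not so on the others. On 213258_at H460 was highest on plastic (0.50) and differed by 1.09. On 214378_at H1703 was highest (1.58) and differed by 0.62, against 0.32 in H358. On 209676_at A427 was highest (1.27) and differed by 0.15, against -0.10 in H1703.

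The other 4 TFPI probe sets gave smaller differences. Probe set 210664_s_at stood at 1.15 ± 0.72, 214378_at at 0.79 ± 0.49 and 213258_at at 0.76 ± 0.48, each higher in 3D in 8 of 8 lines. On 209676_at the mean was 0.65 ± 0.76, with 6 lines higher and 2 lower, H358 at -0.44 and H1703 at -0.10. In those lines 210665_at gave 2.30 and 1.44. The difference on 210665_at exceeded that on 209676_at in 8 of 8 lines, by 1.44 ± 0.76, and that on each of the remaining 3 probe sets in 7 of 8, by means of 0.94 to 1.33.

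**Figure D1:**
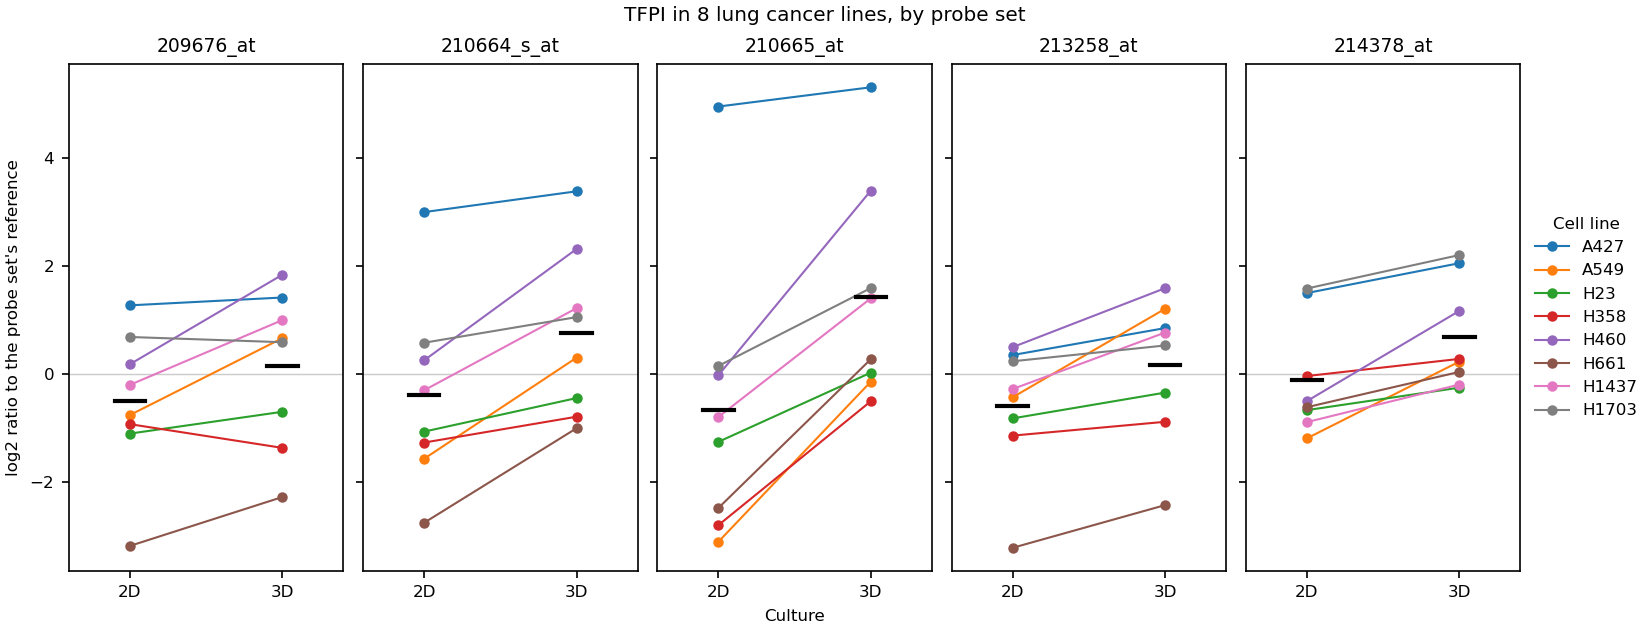
Log2 ratio to the probe set's reference (vertical axis) in 2D and 3D culture for the 5 TFPI probe sets, 1 panel each; every line joins the 2 arrays of a cell line and black bars are means over the 8 lines. On 210665_at the mean moves from -0.67 to 1.42 and all 8 lines slope upward, whereas on 209676_at H358 and H1703 slope downward.

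The TFPI probe sets also disagreed on which line stood highest. TFPI transcripts are known to be spliced to alternative 3' ends that encode the alpha and beta forms, and the platform annotation ties 210664_s_at and 210665_at to one source transcript and 209676_at to another. In A427 on plastic 210665_at lay 4.60 above 213258_at, each against its own reference, and in Matrigel 4.46 above. In A549 the same gap was -2.68 in 2D and -1.35 in 3D. Over the 16 arrays 209676_at and 213258_at had Pearson r = 0.957 and 210664_s_at and 210665_at had r = 0.949, while 210665_at and 213258_at had r = 0.592. The probe sets did not fall into 2 clear groups, since 209676_at and 210664_s_at had r = 0.901. The 10 pairs ran from 0.468 (213258_at and 214378_at) to 0.957. Whether transcript forms underlie these values was not tested. Those arrays come from 8 lines, so these correlations are a description only. H661 was the lowest line on 209676_at, 210664_s_at and 213258_at, with line means of -2.73, -1.88 and -2.83, but ranked 6 of 8 on 210665_at with -1.11.

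Of the 17 tested member probe sets 4 were called higher in 3D and 0 lower, against 2.67% and 4.44% of all tested probe sets (7.11% in either direction). All 4 were TFPI probe sets, 209676_at being the one not called. This count shares its contrast with the choice of the members, so nothing is read from it. With the 18S level of each array as a covariate the TFPI average was 1.09, the same as without it, but the fit then called 0 member probe sets (4 had an unadjusted p under 0.05) and 2 of all tested. Without H460 the calls of 210664_s_at and 213258_at were lost, and the TFPI average was 0.96.

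TFPI2, the Kunitz inhibitor of plasmin that is the closest relative of TFPI among the members, differed between lines far more than between cultures. On 209277_at its values on plastic were 3.45 in H23, 1.46 in H460, 1.14 in A549, 0.33 in H661, -0.43 in H1703, -1.65 in A427, -3.82 in H358 and -6.64 in H1437. In Matrigel the same lines gave 3.61, 1.66, 1.57, 0.56, -0.78, -1.22, -4.24 and -6.64, in the same order. Both H1437 arrays were at the lowest ratio of the table, on both TFPI2 probe sets, so no difference can be read in that line. The mean 3D minus 2D value was 0.08 ± 0.32 on 209277_at and -0.03 ± 0.51 on 209278_s_at, each smaller than its spread over lines. The largest single difference was -1.08 in H1703 on 209278_s_at, where 209277_at gave -0.36.

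Tissue factor (F3) had 1 probe set, and its pattern was set by a few lines. On plastic the values were 4.77 in H358 and 3.71 in H1437, and between -1.52 (H661) and 0.51 (A549) in the other 6 lines. In Matrigel A549 joined the high lines, with 4.28 in H358, 3.77 in A549 and 2.84 in H1437, while the other 5 lay between -1.15 (H661) and 0.12 (H460). The difference in A549 was 3.26, a 9.58-fold higher value, and larger in size than 99.8% of tested probe sets in that line. H1437 moved the other way by -0.87, and the remaining 6 lines lay between -0.49 and 0.37. The mean over lines was 0.30 ± 1.27, with 4 lines higher and 4 lower, and without A549 it was -0.12.

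The 250 bases before the transcription start of F3, PLAUR and TFPI are shown because the first and second hold the AP-1 core letters TGAGTCA and the third, from the member with the largest culture difference, does not. AP-1, the FOS and JUN dimer, is known to act on the tissue factor and urokinase receptor promoters. The sequences are those of RefSeq on GRCh38.p14, all on the minus strand and printed 5′ to 3′ in the gene's direction. They span chr1:94541760-94542009 for F3, chr19:43670170-43670419 for PLAUR and chr2:187554436-187554685 for TFPI. Capitals mark TGAGTCA, which was searched on both strands. Its first base lies 210 bases before the start in F3 and 186 in PLAUR. A match was found in 2 of 9 windows of 7 members and in 4.2% of 35116 windows of all genes, and a match is no evidence of binding.

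F3: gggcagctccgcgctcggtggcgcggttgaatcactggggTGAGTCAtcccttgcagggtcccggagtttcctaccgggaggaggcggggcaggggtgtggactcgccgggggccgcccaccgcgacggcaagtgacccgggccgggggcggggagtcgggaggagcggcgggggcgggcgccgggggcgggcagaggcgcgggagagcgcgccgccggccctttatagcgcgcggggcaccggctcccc
PLAUR: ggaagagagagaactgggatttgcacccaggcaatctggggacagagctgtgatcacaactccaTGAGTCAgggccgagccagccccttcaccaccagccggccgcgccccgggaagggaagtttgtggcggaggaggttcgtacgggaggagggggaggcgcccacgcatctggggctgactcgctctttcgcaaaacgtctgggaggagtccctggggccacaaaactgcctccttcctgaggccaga
TFPI: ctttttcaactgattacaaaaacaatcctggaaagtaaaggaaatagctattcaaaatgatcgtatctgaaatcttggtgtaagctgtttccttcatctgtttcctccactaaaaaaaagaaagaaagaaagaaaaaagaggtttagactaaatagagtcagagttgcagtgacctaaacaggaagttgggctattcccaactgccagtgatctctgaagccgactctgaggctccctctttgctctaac

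Thrombomodulin (THBD) repeated the A549 difference. On 203888_at H460 stood at 4.99 in 2D and 5.35 in 3D, H1437 at 1.77 and 2.62, and A549 at 0.52 and 2.97. The other 5 lines lay between -0.64 and 0.06 in 2D and between -0.66 and 0.27 in 3D. On this probe set only these 3 lines had a value above 1 in either culture. The A549 difference was 2.45, against 0.86 in H1437, 0.54 in H1703, 0.36 in H460 and -0.73 to 0.10 in the other 4. The mean was 0.43 ± 0.94, and 0.14 without A549. The dim THBD probe sets showed the A549 difference as well, with 3.76 on 203887_s_at and 1.53 on 237252_at. On 203887_s_at H23 also differed, with 1.06 in 2D and -0.59 in 3D, which the other 2 probe sets (-0.15 and 0.21) did not show.

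PROCR, the receptor that presents protein C, had its highest values in H460, 2.65 in 2D and 2.43 in 3D. A427 and H1703 lay near -5.05 in both cultures, far below the other 6 lines. Whether values this even are the background of the probe set was not tested, so no difference is read in those lines. In A549 PROCR was lower in 3D by -1.13, opposite in sign to F3 and THBD in the same arrays. H661 was lower by -0.87 and H23 higher by 0.95, and the mean over lines was -0.07 ± 0.68.

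Urokinase (PLAU) had the largest spread of differences over lines among the 9 gene averages (SD 1.33), just ahead of F3 (1.27). On 205479_s_at the 2D values were 3.24 in H358, 2.68 in H23, 2.38 in A549, 1.56 in H661, 0.28 in H1437, -3.03 in H460, -4.46 in H1703 and -5.58 in A427. In 3D H358 stood at 4.51, A549 at 2.35, H661 at 1.07, H23 at -0.35, H1437 at -0.98, H1703 at -4.79, A427 at -4.80 and H460 at -4.85. H23 was thus near the top on plastic and below the middle of the arrays in Matrigel, a difference of -3.03, and its second probe set, 211668_s_at, gave -2.98. Each of these was larger in size than 99.8% of tested probe sets in H23, which is also the line with the largest 18S difference (-3.45), and the part of 18S in this value was not tested within the line. H1437 was lower by -1.27 and -1.35 on the 2 probe sets and H358 higher by 1.27 and 1.43. In H460 the probe sets disagreed, with -1.82 and 0.01, at values of -3.03 and below. The PLAU average was -0.50 ± 1.33, with 6 lines lower and 2 higher, as on 205479_s_at. On 211668_s_at 4 lines were lower and 4 higher. The average was -0.15 without H23, and 0.54 with the 18S covariate, so its direction is not settled.

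The urokinase receptor (PLAUR) differed less. On 210845_s_at the highest lines in 2D were H23 at 1.98, H358 at 1.37 and H460 at 0.78, and the lowest were H1437 at -1.35 and A427 at -2.20. Differences were 1.23 in A549 and 1.17 in A427, and the other 6 lines lay between -0.58 (H1703) and 0.34 (H460). The A427 difference exceeded 99.1% of those in its line. Probe set 211924_s_at followed it (r = 0.993 over the 16 arrays), while 214866_at gave 0.24 in A549 and 1.35 in H460. The PLAUR average was 0.22 ± 0.60, higher in 4 lines and lower in 4. It was 0.11 without A427 and 0.51 with the 18S covariate.

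Tissue plasminogen activator (PLAT) was high in 2 lines, H358 (4.40 in both cultures) and H460 (3.98 in 2D and 4.54 in 3D). Among the other lines H1437 was highest on plastic with 1.43 and stood at 0.02 in 3D, a difference of -1.41 that exceeded 98.4% in size in that line. A549 and H661 were lower by -0.53 and -0.83 and A427 higher by 0.77. H23 differed by -0.06 and H1703 by -0.02. The mean was -0.19 ± 0.71, and -0.02 without H1437.

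SERPINE2, the inhibitor of thrombin and of both activators, ranged from 3.80 in H460 to -6.30 in H661 on plastic (212190_at). In 3D the values ran from 3.58 in H460 to the lowest ratio, -6.64, in H661, with A427 at -5.93. Its largest difference was -1.24 in H1703, from -3.18 to -4.43, and A549 was higher by 0.66. The mean was -0.23 ± 0.56, with 6 lines lower. The dim probe set 227487_s_at stood at 2.64 and 2.09 in H460 and between -0.78 and -0.02 in every other array.

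**Figure D2:**
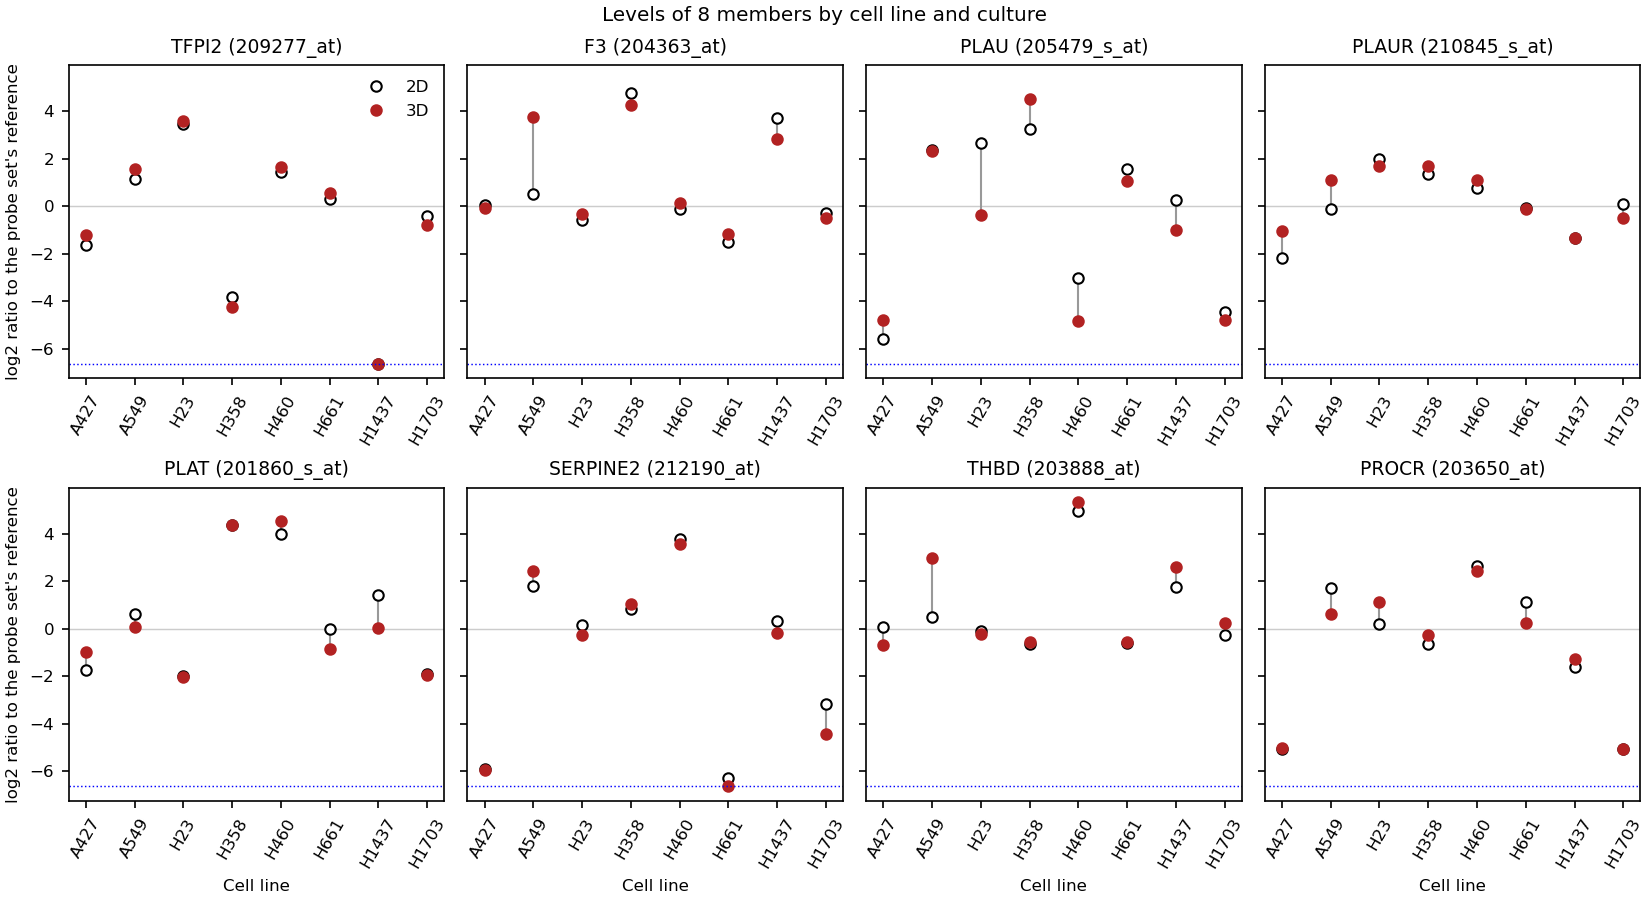
Log2 ratio to the probe set's reference (vertical axis) for the most variable tested probe set of the 8 members other than TFPI, by cell line, with open circles for 2D and filled circles for 3D; the dotted line is the lowest ratio in the table. Most pairs of circles lie close together beside the spread between lines. The widest pairs are F3 and THBD in A549 and PLAU in H23, followed by PLAU in H460.

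Outside TFPI no member moved the same way in every line. Of the 12 tested probe sets of the other 8 members 0 had the same sign in 8 lines. Among all tested probe sets 3.62% were higher in 8 lines and 4.31% lower, so 0 of 12 does not set the members apart. The 2 TFPI2 probe sets could not have the same sign in 8 lines, since both H1437 arrays were at the lowest ratio. For all 17 tested member probe sets the 2D and 3D ranges overlapped.

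By line, A549 had 4 member genes with a difference of 2-fold or more (F3, THBD, TFPI and PROCR, the last lower) and H1437 had 3 (TFPI higher, PLAU and PLAT lower). Each of the other 6 lines had 1 member gene past 2-fold, which was TFPI in H460 and H661, PLAU in H23 and H358, PLAUR in A427 and SERPINE2 in H1703. The share of all tested probe sets past 2-fold also differed between lines. It was 6.39% in A549, 4.96% in H1437, 7.8% in H23, 8.74% in H358, 5.37% in H460, 9.94% in H661, 3.47% in H1703 and 1.87% in A427. On the most variable probe set of each gene, the differences of F3 and THBD had r = 0.740 over the 8 lines, A549 having the largest in both. Those of PLAUR and SERPINE2 had r = 0.847. PLAU and its receptor PLAUR had r = 0.475 for the differences and 0.532 for the line means. All 36 pairs share the same 8 lines, and no p-value is given.

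**Figure D3:**
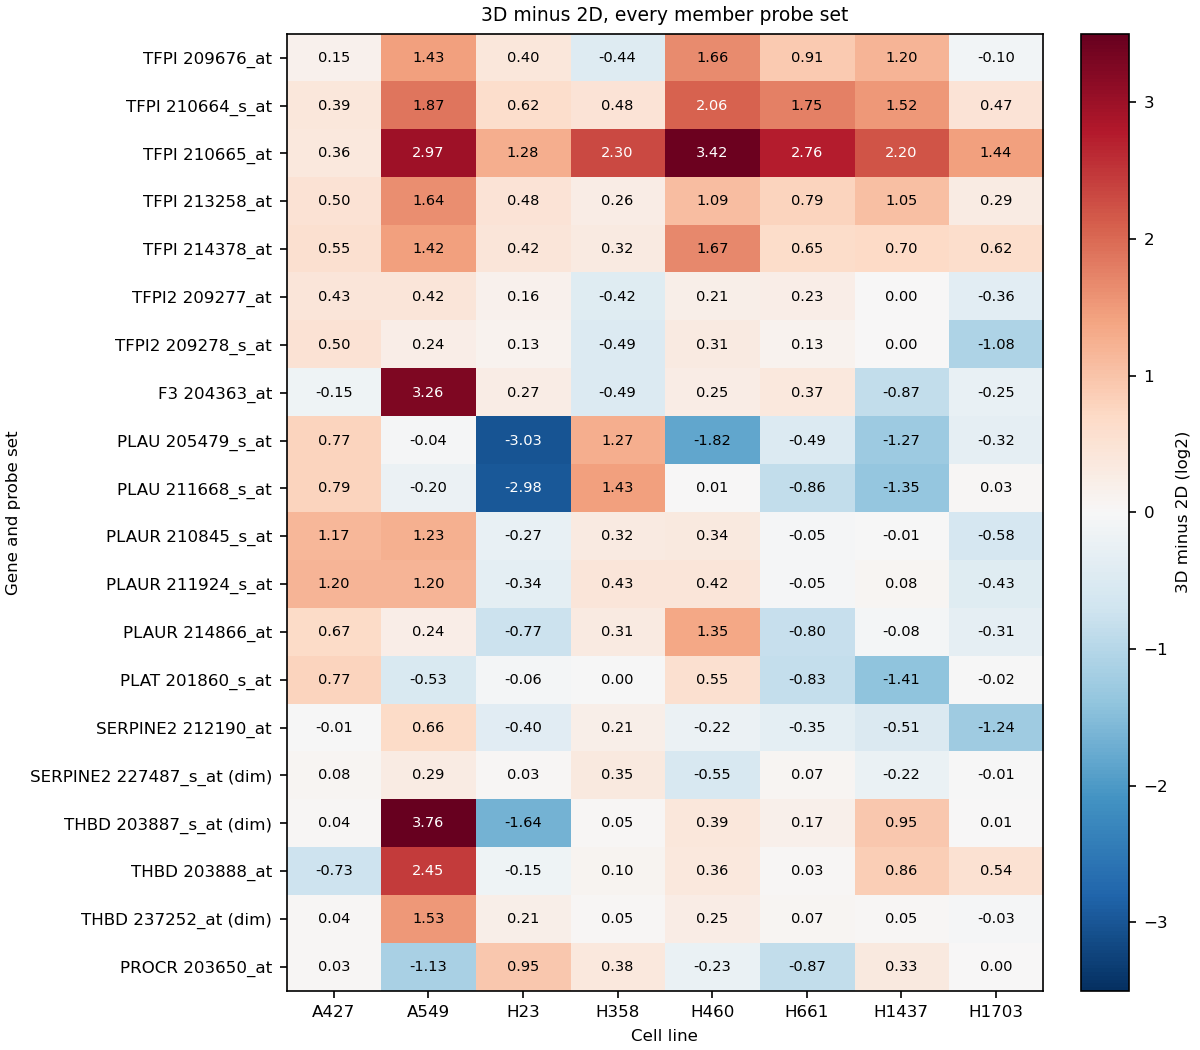
3D minus 2D difference (log2, colour and printed value) for the 20 member probe sets (rows) in the 8 cell lines (columns), with dim probe sets marked. The TFPI rows are positive except for H358 and H1703 on 209676_at, and the strongest values elsewhere are F3 (3.26) and THBD (3.76 and 2.45) in A549 and PLAU (-3.03 and -2.98) in H23.

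The levels of the members differed between the cell lines. In the moderated F test of limma over the 7 line coefficients, with culture in the fit and the 2 cultures as the 2 arrays of a line, 17 of 17 tested member probe sets were called, where 76.2% of all tested probe sets were. A line difference is thus common in these data. The members were chosen with earlier results of these data known, so their F values and p-values are given as a description. The F values ran from 10.8 for PLAUR 214866_at (adjusted p = 0.00111) to 359 for TFPI2 209277_at (adjusted p = 2.77e-08). The TFPI2 and SERPINE2 values include arrays at the lowest ratio. The median F was 28.1, against 9.39 over all tested probe sets. SERPINE2 212190_at had F = 157 (adjusted p = 1.58e-07), PROCR 85.6 (adjusted p = 8.8e-07), PLAT 66.9 (adjusted p = 1.94e-06) and F3 14.9 (adjusted p = 0.00035). The spread left after line and culture was also larger for the members, with a median residual SD of 0.50 against 0.25.

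The order of the lines differed from gene to gene. For F3 it was H358, H1437, A549, A427, H460, H1703, H23 and H661, and the 2 arrays of H1437 and A549, of A427 and H460, and of H1703 and H23 overlapped. For PLAT the H358 and H460 arrays overlapped at line means of 4.40 and 4.26, and the third line, H1437, followed at 0.73. For THBD and PROCR H460 stood first and apart from the next line, with line means of 5.17 and 2.54. For SERPINE2 H460 (3.69), A549 (2.13) and H358 (0.95) stood apart from each other, and H1703, A427 and H661 were lowest. For TFPI2 H23 led, apart from H460 and A549, which overlapped. PLAU was led by H358 and then A549, and H460, H1703 and A427 were below -3 in every array. TFPI on 210665_at was led by A427 (5.13), apart from H460 (1.69), and from H460 down every neighbour overlapped the next.

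**Figure D4:**
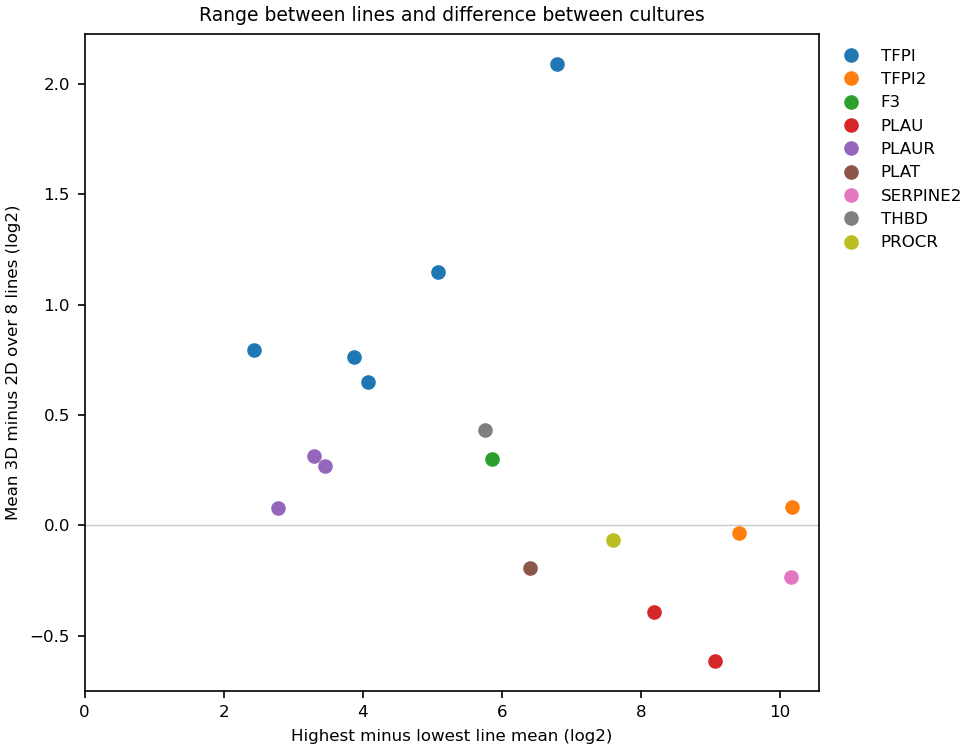
For each of the 17 tested member probe sets, the highest minus the lowest line mean (horizontal axis, log2) and the mean 3D minus 2D difference over 8 lines (vertical axis, log2), coloured by gene. TFPI2 209277_at and SERPINE2 212190_at have a line range of at least 10.2, a lower bound because their lowest lines hold values at the lowest ratio, with culture means of 0.08 and -0.23, and TFPI 210665_at lies highest at 2.09 with a line range of 6.79.

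For each member the genes with the most similar profile over the 16 arrays were listed among tested probe sets of single genes. For TFPI (210665_at) they were IPMK (Pearson r = 0.910), STX17-DT (0.889) and MIER3 (0.888). The closest for TFPI2 was GNG11 (0.948), for F3 the laminin chain gene LAMB3 (0.952), for PLAU the NOTCH ligand gene JAG1 (0.965) and for PLAUR XRN2 (0.861). PLAT was closest to IFI16 (0.959), SERPINE2 to DOCK4 (0.941), THBD to DDIT4L (0.950) and PROCR to the spectrin gene SPTBN1 (0.953), with TGFB2 next (0.930). By the 8 differences of 3D minus 2D, TFPI was closest to SUMF1 (0.983), RIN3 (0.937) and NAPEPLD (0.931). The arrays come from only 8 lines, so these values are descriptions.

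Of 46 further coagulation and fibrinolysis genes 43 had a probe set here, and 21 of them had a tested one, 42 probe sets in all. On these the culture contrast called 1 gene higher and 1 lower, 2 of 42 probe sets beside the 7.11% of all tested, and their median difference was -0.01. F8, which encodes coagulation factor VIII, rose in 3D by 0.47 ± 0.33 (limma, adjusted p = 0.0414), in 7 of 8 lines. VKORC1L1, a vitamin K reductase paralog of VKORC1, fell by 0.60 (SD 0.35; limma, adjusted p = 0.0241) in 8 of 8 lines on 1553679_s_at, while its other probe set gave -0.05 ± 0.44. With the 18S covariate, where limma called 2 of all tested probe sets, the differences were 0.31 for F8 and -0.59 for VKORC1L1 and neither was called (adjusted p = 0.571 and 0.39). The F8 call held in 6 of 16 alternatives. Besides the 18S covariate it ended with no dim filter, a robust prior or no replicate block. It also ended when H23, H358, H460, H661, H1437 or H1703 was left out. The VKORC1L1 call held in 11 of 16, ending also with no replicate block and without H23, H358 or H1703. Calls over all tested probe sets fell as well with lines left out, to 554 without H358 against 2464.

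The remaining pathway genes gave no call. The endocytic receptor LRP1, which clears TFPI and activator complexes, stood at 0.81 ± 0.73 on 200785_s_at (limma, adjusted p = 0.0533), 0.39 ± 0.42 on 200784_s_at and 0.21 ± 0.21 on 1555353_at. The protein C cofactor PROS1 had 0.75 ± 0.85 (limma, adjusted p = 0.0988), with 5 lines higher and 3 lower. The thrombin receptor F2R had -0.01 ± 0.86 and 0.07 ± 0.25 on its 2 tested probe sets. ANXA2 and S100A10, which together form a plasminogen receptor, had values between -0.07 and -0.01 and of 0.03 and 0.04. Thrombospondin 1 (THBS1), a matrix glycoprotein that also binds plasmin, ranged from -0.54 to 0.31 over 4 probe sets, with single lines as low as -3.76. Many factors known as liver products were dim in most arrays. Fibrinogen (FGA, FGB, FGG), prothrombin (F2), factors F5, F9 and F10, protein C (PROC) and antithrombin (SERPINC1) had no tested probe set.

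Markers of other cell types were examined because TFPI, THBD and PROCR are also known as endothelial genes. Of 10 endothelial markers 5 had a tested probe set, and limma called 0 of 6 probe sets (0 at an unadjusted p under 0.05). VWF, CDH5, KDR, TIE1 and EMCN were dim on every probe set, though KDR reached 1.48 in 3D. The tested ERG probe set reached 1.29 in 2D and 2.48 in 3D. It was higher in 3D in 8 lines, by a mean of 0.29 ± 0.39, and was not called (limma, adjusted p = 0.197). Of the 23 endothelial probe sets 6 were tested, and a dim probe set has its median below 0 by definition. A list mean below 0 is therefore no measure of the RNA of a cell type, and the lists cannot be ranked by it. The mean over all endothelial probe sets lay between -0.68 and -0.36 in 2D and between -0.70 and -0.10 in 3D. In the same terms the platelet list ran from -0.67 to -0.03 and from -0.67 to 0.96, the leukocyte list from -0.63 to 0.34 and from -0.68 to 0.57, and the fibroblast list from -0.87 to 3.18 and from -0.78 to 3.46. Limma called 0 probe sets in each of these 3 lists (0, 2 and 0 at an unadjusted p under 0.05). The 7 epithelial and mesenchymal genes, EPCAM, KRT8, KRT18, KRT19, CDH1, CDH2 and VIM, each had a tested probe set, with 0 of 9 called (0 at an unadjusted p under 0.05). KRT8 and VIM each reached the lowest ratio in at least 1 array per culture, so these markers were not measurable in every line.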

How the data were processed

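Per the labels' protocols, 200 ng of phenol-extracted RNA from each culture was biotin-labelled for an Affymetrix U133 Plus 2.0 array. The authors deposited log2 ratios, covering 54675 probe sets. Their linear median is 1 (log2 within 0.001 of 0) in 63.5% and above it in 0. How probes were summarised and arrays normalised is not given in the sources used here. Arrays carry no read depth, so their number limits the precision.

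Genes came from the platform annotation, which gave 41097 probe sets 1 symbol, 1801 several and 11777 none; symbols were checked against RefSeq (GRCh38.p14). The 62 array controls and 19944 dim probe sets were left out. On the rest, limma (version 3.58.1; R version 4.3.3) fitted culture and cell line with lmFit and eBayes with a variance trend, after a test on simulated data. The cell line named in the labels pairs the arrays; r between the cultures of a line was 0.756 to 0.92. Values per gene are means over tested probe sets, and errors are SDs over lines. P-values of the culture contrast set the mean difference between the cultures against the spread of that difference over lines. Those of the line test set differences between lines against the residual left after line and culture. The members, gene lists and tests were chosen with earlier results of these data known. Named by rule were all member probe sets, the most similar profiles, called pathway genes and a few fixed others; LRP1, SERPINA5 and the dim liver factors were named after their values were seen. For 3 pathway genes and 1 leukocyte marker no probe set was matched, and they were not analysed here. Alternatives covered the filter, scaling, variance prior, block, 18S covariate, probe set choice and each line left out.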

Additional observations from a re-analysis of the deposited data

Results flagged for a closer look

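In 60 groups of 8 member values (2D levels, 3D levels and differences of 20 probe sets), 9 had 1 line set apart by a gap larger than Dixon's 95% critical share of the range. Chance gives about 1 in 20 groups, and probe sets of one gene share arrays.

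H460 stood apart for THBD on plastic on all 3 probe sets, at 6.32 on 203887_s_at, 4.99 on 203888_at and 2.45 on 237252_at. It also stood apart for SERPINE2 on 227487_s_at, at 2.64 in 2D and 2.09 in 3D. A427 stood apart for TFPI on 210665_at in 2D, at 4.95, and H661 for TFPI on 213258_at in 2D, at -3.22. A549 stood apart in its 3D minus 2D difference of F3, at 3.26, and of THBD on the dim 237252_at, at 1.53, against a 2D value of 0.01 that was no higher than the other low lines and so gives only a lower bound. No explanation of these values was tested.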

How the results depend on the processing

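The 4 member calls of 3D against 2D were also 4 without the dim filter, with the stricter filter, with centred or quantile-normalised arrays and with both other variance priors, and 3 once the s and x suffix probe sets were dropped. In limma they were 0 with the 18S covariate (4 at an unadjusted p under 0.05) and 0 with no replicate block (0 at an unadjusted p under 0.05), and 2 to 4 with single lines left out, lowest without H460. With no replicate block 8 of all 34669 probe sets were called. The calls between lines were 17 of 17 in 14 alternatives, 20 of 20 with no dim filter, and 14 of 14 with the stricter filter and 10 of 10 without suffix s or x, where fewer probe sets were tested. The 2 calls among other pathway genes became 1 with no dim filter, 1 with a robust prior, 0 with 18S, 0 with no replicate block and 0 without suffix s or x (2, 0 and 3 at an unadjusted p under 0.05). With single lines left out they were 0 to 4 (0 without H23, H358 or H1703, 1 without H460 or H661, 4 without A427). Counts over all probe sets were 1091 with no dim filter, 2 with 18S and 554 to 2591 with single lines left out, against 2464. The TFPI average was 0.96 to 1.19 with single lines left out. On 210665_at alone, the TFPI probe set with the highest mean ratio, the difference was 2.09. Each ratio is to the probe set's own reference, so this choice does not rank probe sets by signal. For F3, PROCR, PLAU and TFPI2 at least 1 alternative changed the sign of an average that was not called. Their ranges were -0.12 to 0.47, -0.31 to 0.08, -0.77 to 0.54 and -0.04 to 0.16. SERPINE2 ran from -0.36 to 0.00. Its sign changed only on the dim probe set 227487_s_at, picked by the same highest mean ratio, at 0.0025. PLAT, PLAUR and THBD kept their sign, with ranges of -0.33 to -0.02, 0.11 to 0.51 and 0.14 to 0.60. Values at the lowest ratio, 5 among the members, limit TFPI2 in H1437 and SERPINE2 in H661.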

Other observations

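Several coagulation genes that were too dim in most arrays to be tested had large values in single lines, chosen here after their values were seen. The 3 fibrinogen chains had far higher values in Matrigel than on plastic in A549, with 0.44 in 2D and 6.74 in 3D for FGA (205650_s_at), 1.82 and 7.94 for FGB (204988_at) and 2.54 and 8.53 for FGG (219612_s_at), all on the log2 scale. Of their other probe sets, 205649_s_at (FGA) stood at -0.26 and 5.90, 216238_s_at (FGB) at 1.30 and 7.18 and 231671_at (FGA) at -0.69 and -0.27. The A549 2D values on 205649_s_at and 231671_at lay within the values of lines low in both cultures, so no exact fold can be read from them. On 205650_s_at the A549 2D value of 0.44 was close above those lines, which reached 0.30 (H1703 in 3D), so its fold is not exact either. H1437 was highest for all 3 chains in both cultures, between 10.2 and 11.7 on the first-named probe sets, with differences of 0.04 to 0.52. FGG was also high in H460, at 6.45 in 2D and 8.22 in 3D.

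Coagulation factor V (F5, 204714_s_at) stood at -0.93 in 2D and 3.08 in 3D in A549, and at 2.69 and 4.90 in H358. On that probe set the other 6 lines lay between -0.94 and -0.63. The other F5 probe sets gave smaller A549 differences. On 204713_s_at A549 stood at -0.90 and 0.91 and H358 at 0.36 and 2.92. On 231029_at A549 stood at -1.14 and -0.48 and H358 at -1.17 and -0.76. SERPINA5, the protein C inhibitor, stood at -0.92 in 2D and 1.64 in 3D in A549, the only value above 0 among its 16 arrays. The A549 values of F5 and SERPINA5 in 2D were like those of the low lines, so their differences are lower bounds. A549 is also the line of the large F3 and THBD differences. In H23, the line in which PLAU was lower by -3.03, thrombospondin 1 (THBS1) was lower by -2.91, -3.73 and -3.76 on 3 probe sets. On 235086_at THBS1 was lower by -1.71 in H23, and its dim probe sets gave 0.05, 0.02 and 0.11. Each of these is a pair of single arrays, so none has a replicate or a test.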
